A study of Mus musculus with 14 samples.

Results

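The hearts of this series can be ordered by how many working copies of Irx3 and Irx5 they still carried, and the signal of every gene was set against that number. RNA of mouse embryonic hearts at E12.5 (the age in days after conception) was measured on 14 microarrays in 4 genotypes. Irx5+/- hearts kept 3 copies (3 arrays), Irx5-/- hearts kept 2 (3 arrays), Irx3-/-;Irx5+/- hearts kept 1 (4 arrays) and Irx3-/-;Irx5-/- hearts kept 0 (4 arrays), where Irx3 was counted as wild type with 2 copies if a label did not name it. They are called 3-copy, 2-copy, 1-copy and 0-copy hearts here, and the 3-copy hearts were the series' own reference. All 14 arrays of the series entered the trend, with 21776 of its 28763 probe sets, those that the platform table pairs with exactly 1 gene symbol. Every group carried at least 1 inactive Irx5 allele, so none was wild type for both genes. The 2-copy and 1-copy hearts differed in which gene was missing as well as in the number of copies: the former kept Irx3 without Irx5, and the latter kept 1 copy of Irx5 without Irx3. The labels do not say how the alleles were made, which strain carried them or whether each array came from its own embryo, so p-values refer to the spread between these arrays and no wider.

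Irx3 and Irx5 encode homeodomain transcription factors of the Iroquois family. They lie in a chromosomal cluster with Irx6, while Irx1, Irx2 and Irx4 form another cluster. In the mouse heart Irx3 is known for its part in the fast ventricular conduction system, which uses the gap junction protein of Gja5, and Irx5 for the gradient of repolarization across the ventricular wall. Both genes are also expressed in the endocardium, the inner lining of the heart.

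Values are log2 intensities after RMA, a background correction, quantile normalization and summary per probe set. The median of an array lay between 8.04 and 8.14, and any 2 arrays correlated at 0.953 to 0.986. Cardiac muscle genes gave strong signal on every array, with Myl7, an atrial myosin light chain, at 10.29 to 12.79 and Tnni1, the slow skeletal troponin I of the embryonic heart, at 10.13 to 12.32. Summed signal of the muscle genes was uneven among the 3-copy hearts. The mean of 31 sarcomere genes, relative to its average over all arrays, lay at 0.11, -0.64 and -1.55 there. It was -0.22, 0.86 and -0.30 in 2-copy hearts, 0.37, 0.07, -0.38 and 0.23 in 1-copy hearts and 0.15, 0.26, 0.63 and 0.41 in 0-copy hearts. By Xist and Y-linked genes the groups held 2 female and 1 male, 1 and 2, 3 and 1, and 3 and 1 arrays, from 3 copies to 0. One array has conflicting labels: 1-copy replicate 4 is titled and genotyped as such, but its description names Irx5-/-. In whole-heart RNA, fewer cells of a type and less RNA per cell cannot be told apart.

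A straight line was fitted to each probe set, and its slope is the change in log2 signal per copy lost, given with its standard error. Of 21776 probe sets, 9 had a slope past an adjusted p of 0.05 in limma (0.0413%), and they belonged to 3 genes. Hmcn1, with 6 probe sets, and Irx3, with 1, fell as copies were lost (7 falling probe sets, 0.0321%), and Fdft1 rose in both of its probe sets (0.00918%). At an unadjusted p under 0.05 there were 2204 slopes (10.1%, where 1088.8 would be so by chance), 1236 rising (5.68%) and 968 falling (4.45%). The median slope of all probe sets was -0.0040 and 53.1% lay below 0. No probe set, 0 of 21776, had the arrays of all 4 groups in copy order without overlap. The count of 9 called probe sets was 43 without 2-copy replicate 2, 4 without 3-copy replicate 2, 5 without 0-copy replicate 1, 3 without 0-copy replicate 3 and 4 without 0-copy replicate 4.

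Of the 9 called probe sets, only that of Irx3 had its 4 group means in copy order, and only Irx3 was called when departures from the line were counted as error. Fitted without the 3-copy hearts, without the 0-copy hearts or with the sarcomere mean as a covariate, 0 slopes passed in limma (902, 963 and 1542 at an unadjusted p under 0.05). With that covariate the slopes themselves were -0.24 for Irx3, -0.23 for the brightest Hmcn1 probe set and 0.27 for that of Fdft1. Between 3-copy and 0-copy hearts alone, 16 probe sets differed past an adjusted p of 0.05 in limma (0.0735%). The closest probe sets inside the threshold were the second one of Fdft1 and Hmcn1 probe set 10358664 (adjusted p = 0.0372 in limma for both), and the closest outside it was Polr3c (adjusted p = 0.0820).

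**Figure D1:**
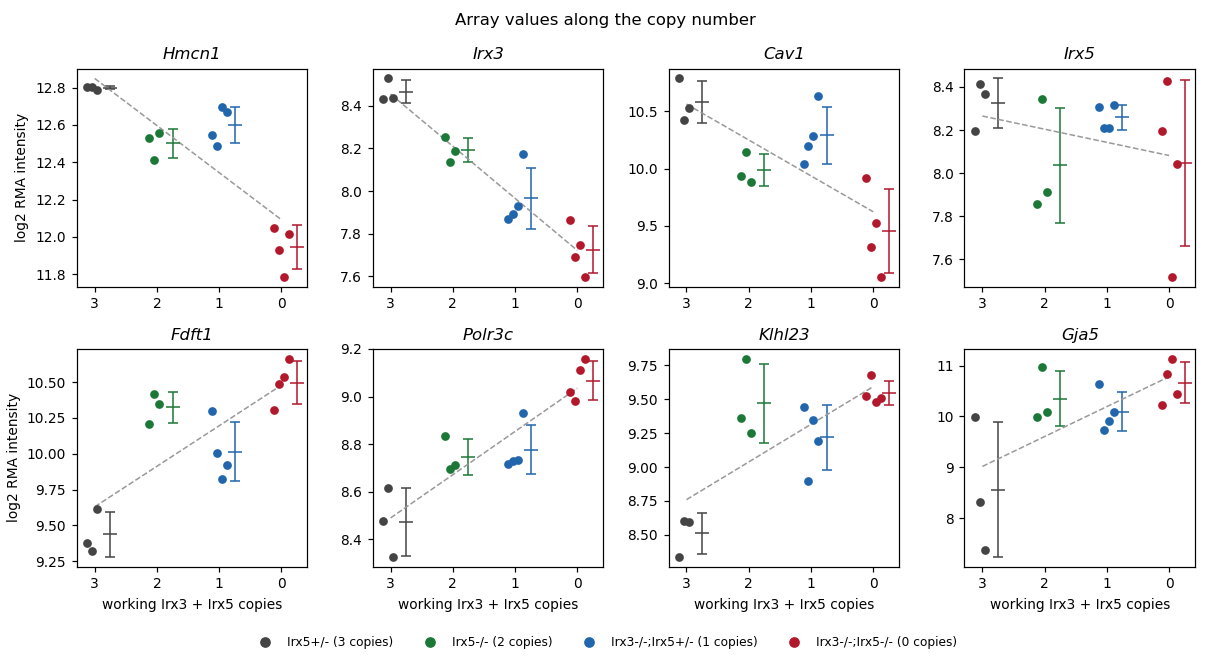
Log2 RMA intensity of 8 genes (vertical axes) against the working copies of Irx3 and Irx5 (horizontal axes, 3 to 0), with 1 point per array, mean and SD per group beside the points, and the straight line dashed. Irx3 stepped down evenly from 8.47 to 7.73, whereas Hmcn1 and Fdft1 had 2-copy means beyond their 1-copy means.

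Irx3 is itself a targeted gene, and its own copies are counted in the number that its signal was set against. Its signal followed the line more closely than any other called gene. The 3-copy arrays read 8.43, 8.53 and 8.44. The 2-copy arrays read 8.25, 8.14 and 8.19. The 1-copy arrays read 7.87, 7.89, 7.93 and 8.17, and the 0-copy arrays 7.86, 7.69, 7.75 and 7.60. Neighbouring groups touched at a few arrays: the 8.17 of the 1-copy array with the disagreeing description lay within the 2-copy range, and the 0-copy array at 7.86 lay just below the lowest 1-copy array. Irx3 fell by 0.24 ± 0.03 (SE, adjusted p = 0.0100 in limma) per copy lost, 1.67-fold from 3-copy to 0-copy hearts. Its steps were -0.27 ± 0.10, -0.23 ± 0.10 and -0.24 ± 0.09 (SE), and the departure of the group means from the line had an unadjusted p of 0.959. In the 2-copy hearts, which the labels do not describe as Irx3 mutant, all 3 arrays lay below all 3 of the 3-copy arrays. By label the Irx3 copies were 2, 2, 0 and 0 from 3-copy to 0-copy hearts. The steps from 3 to 2 and from 1 to 0 copies thus came with no Irx3 copy lost. The slope was not called without 3-copy replicate 2 (adjusted p = 0.0553), which read 8.53.

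The signal of Irx5, the other targeted gene, separated its labelled genotypes only in part. Irx5 read 8.19, 8.41 and 8.37 in 3-copy hearts, 7.86, 8.34 and 7.91 in 2-copy hearts, 8.31, 8.21, 8.21 and 8.31 in 1-copy hearts, and 8.20, 8.43, 7.52 and 8.04 in 0-copy hearts. The arrays at 7.86, 7.91, 7.52 and 8.04, all labelled Irx5-/-, lay below every array that kept 1 copy of Irx5. The other arrays labelled Irx5-/- overlapped those, and 2 of the 4 arrays with 0 copies lay inside or above the 3-copy range. The slope of Irx5 was -0.06 ± 0.06 (SE, adjusted p = 0.782 in limma). By label the Irx5 copies were 1, 0, 1 and 0 from 3-copy to 0-copy hearts, so this slope does not measure the difference per Irx5 copy. No source used here says which parts of Irx3 and Irx5 the alleles change or whether the probe sets lie there. Neither signal was therefore read as a test of the genotype. Of the 6 Iroquois genes 1 was called, and the slopes of the others were -0.00 ± 0.04 for Irx1, 0.06 ± 0.04 for Irx2, 0.20 ± 0.10 for Irx4 and -0.05 ± 0.04 (SE) for Irx6. Irx6, the third gene of the Irx3 and Irx5 cluster, had group means of 7.85, 7.47, 7.83 and 7.56 from 3 copies to 0, low in both groups without Irx5 (departure at an unadjusted p of 0.0293).

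The 2 genes that fell with the copy number are given with the 250 bases before their transcription start (RefSeq, GRCm38.p6, minus strand for both), at chr1:150993436-150993685 for Hmcn1 and chr8:91801655-91801904 for Irx3. Capitals mark CCAAT or its reverse complement ATTGG, a common promoter box.
Hmcn1: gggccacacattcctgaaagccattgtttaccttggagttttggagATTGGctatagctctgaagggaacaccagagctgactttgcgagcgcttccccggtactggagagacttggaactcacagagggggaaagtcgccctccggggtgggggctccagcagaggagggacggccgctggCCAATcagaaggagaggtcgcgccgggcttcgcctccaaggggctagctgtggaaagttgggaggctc
Irx3: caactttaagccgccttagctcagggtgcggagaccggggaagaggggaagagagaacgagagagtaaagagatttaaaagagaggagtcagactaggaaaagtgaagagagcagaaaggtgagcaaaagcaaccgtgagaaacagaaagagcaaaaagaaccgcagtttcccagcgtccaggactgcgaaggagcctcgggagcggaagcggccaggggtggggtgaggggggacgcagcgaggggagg
The Hmcn1 window held 2 such boxes and the Irx3 window 0, and 33.8% of 32851 mouse promoter windows of this length held at least 1. The palindrome ACANNTGT, described as an Iroquois binding site in the fly, was searched on both strands. It occurred 0 times in either window and in 6.31% of all windows, which says only that these letters are not in these 250 bases.

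Hmcn1 encodes hemicentin-1, a very large extracellular matrix protein of the immunoglobulin superfamily. Its brightest probe set (10358670, chromosome 1) read 12.80, 12.81 and 12.79 in 3-copy hearts and 12.53, 12.41 and 12.56 in 2-copy hearts. It read 12.55, 12.49, 12.70 and 12.67 in 1-copy hearts and 12.05, 11.93, 11.79 and 12.02 in 0-copy hearts. The 3-copy arrays were the highest and the 0-copy arrays the lowest, each without overlap with the other groups, while 2-copy and 1-copy arrays overlapped. Hmcn1 fell by 0.25 ± 0.03 (SE, adjusted p = 0.00818 in limma) per copy lost in this probe set, 1.81-fold from 3-copy to 0-copy hearts.

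The fall was not even along the copies. Steps of the brightest probe set were -0.30 ± 0.10 from 3 to 2 copies, 0.10 ± 0.09 from 2 to 1 and -0.65 ± 0.08 (SE) from 1 to 0. The 1-copy mean lay 0.26 ± 0.05 (SE) above the line and the 0-copy mean at -0.15 ± 0.03 (SE) from it (departure at an unadjusted p of 0.00057, adjusted p = 0.485 in limma). The steepest called probe set, 10358535, had means of 11.45, 10.47, 10.89 and 9.59, fell by 0.52 ± 0.07 (SE, adjusted p = 0.0197 in limma) per copy, and differed 3.63-fold between 3-copy and 0-copy hearts. Hmcn1 had at least 2 called probe sets in every fit that left out 1 array, and the lowest number, 2, came without 0-copy replicate 3.

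The array carries 77 probe sets for Hmcn1, which belong to 1 gene, read the same RNA and are not replicates of each other. All 77 slopes were below 0 (53.1% of all probe sets), between -0.52 and -0.11 with a median of -0.26. Of them, 66 had an unadjusted p under 0.05 (4.45% of all probe sets fell at that level). The 0-copy mean was the lowest of the 4 in all 77, a share not counted over all probe sets. In 53 of them every 0-copy array lay below every 3-copy array (5.76% of all probe sets did so). The means were in copy order in 5, beside 4.59% of all probe sets in falling order. In 72 of the 77 the 2-copy mean was below the 1-copy mean, with median steps of -0.33, 0.22 and -0.81.

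**Figure D2:**
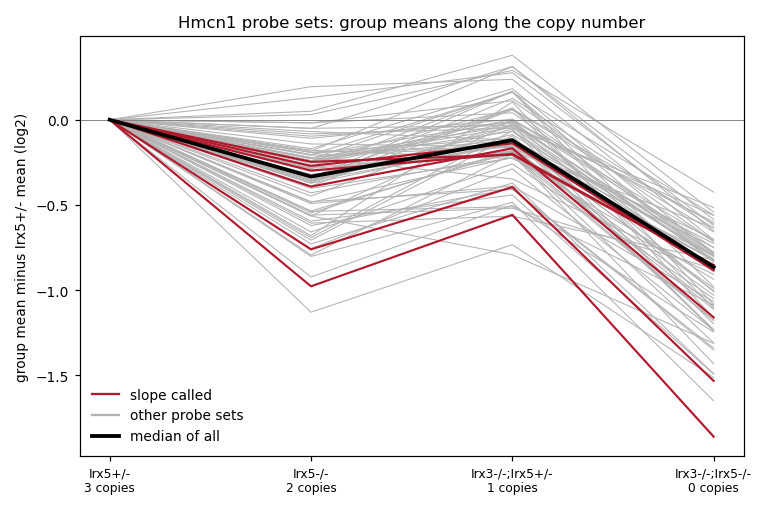
Group means of the 77 Hmcn1 probe sets relative to their 3-copy mean (vertical axis, log2) across the 4 genotypes (horizontal axis), with 1 line per probe set, the 6 called ones in red and the median in black. The median dips in 2-copy hearts and recovers in part in 1-copy hearts, which not every line does. In 0-copy hearts all 77 means are lowest.

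Fdft1 encodes squalene synthase, which commits the isoprenoid pathway to sterols. Its brightest probe set (10420730, chromosome 14) read 9.37, 9.32 and 9.61 in 3-copy hearts and 10.20, 10.42 and 10.35 in 2-copy hearts. It read 10.30, 10.01, 9.82 and 9.92 in 1-copy hearts and 10.30, 10.49, 10.53 and 10.66 in 0-copy hearts. All 3-copy arrays were below all others, and the 2-copy arrays overlapped the 0-copy arrays. Fdft1 rose by 0.28 ± 0.04 (SE, adjusted p = 0.0234 in limma) per copy lost, 2.08-fold from 3-copy to 0-copy hearts.

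Fdft1 left the line most in the 2-copy hearts, whose mean lay 0.41 ± 0.08 (SE) above it (departure at an unadjusted p of 0.000607). The steps were 0.89 ± 0.14, -0.31 ± 0.13 and 0.48 ± 0.12 (SE). Its second probe set had means of 8.57, 9.62, 9.24 and 9.94 and rose by 0.37 ± 0.06 (SE, adjusted p = 0.0372 in limma). Neither probe set was called without any of the 3-copy replicates, nor without 0-copy replicates 2, 3 or 4, where the adjusted p of the brightest reached at most 0.184 in limma. Its slope ranged from 0.24 to 0.30 over those fits and the other leave-one-out fits. With the array of the disagreeing description counted as Irx5-/-, its adjusted p was 0.0605.

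Among 19 genes of cholesterol synthesis, Fdft1 was the only one called, 2 slopes were rising and 1 falling at an unadjusted p under 0.05, and the median slope was 0.03. The other 2 were chosen after their values were seen: Sc5d, a late sterol desaturase, at 0.20 ± 0.06, and Mvk, mevalonate kinase, at -0.10 ± 0.03 (SE). The departure had an unadjusted p under 0.05 in 7 of the 19 (7.34% of all probe sets), with a median step of 0.23 from 3 to 2 copies and -0.22 from 2 to 1.

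The genes next in rank on the rising side did not pass. Polr3c, a subunit of RNA polymerase III, read 8.48, 8.62 and 8.33 in 3-copy hearts, 8.83, 8.69 and 8.71 in 2-copy hearts, 8.72, 8.73, 8.73 and 8.93 in 1-copy hearts and 9.02, 8.98, 9.11 and 9.16 in 0-copy hearts. The highest and lowest groups did not overlap, and the 2 between them did. Its slope was 0.18 ± 0.03 (SE, adjusted p = 0.0820 in limma), with the group means in copy order and a departure at an unadjusted p of 0.268. Klhl23, a kelch-like protein, had a slope of 0.28 ± 0.05 and means of 8.51, 9.47, 9.22 and 9.55, so that its largest step, 0.96, was the one from 3 to 2 copies. H3c15, a replication-dependent histone H3 gene, had means of 4.94, 5.20, 5.22 and 6.57 and its largest step, 1.35, from 1 to 0 copies. Its signal was weak, at 4.64 to 5.70 outside the 0-copy hearts where array medians were 8.04 to 8.14.

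The slopes of the others on that side were 0.44 ± 0.08 for Hectd2, a ubiquitin ligase, 0.19 ± 0.03 for Siva1, an apoptosis regulator, and 0.48 ± 0.08 for Fat3, a giant cadherin. They were 0.29 ± 0.05 for Nans, sialic acid synthase, 0.18 ± 0.03 for Nup107, a nuclear pore scaffold protein, and 0.46 ± 0.09 (SE) for Hspb8, a small heat shock protein. The Fat3 slope is that of its probe set with the smallest p, 10591131, which was not its brightest. Of the 15 probe sets of Fat3, 12 had slopes above 0 and 3 below. Hectd2 read 7.37 to 7.54 in 3-copy hearts and 7.88 to 9.16 in all others, so its values separated the reference from the other groups and did not order them. None of these 9 genes had an adjusted p under 0.0820 in limma.

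On the falling side, Cav1, the main coat protein of caveolae, read 10.79, 10.42 and 10.53 in 3-copy hearts and 9.93, 10.15 and 9.88 in 2-copy hearts. It read 10.04, 10.20, 10.28 and 10.63 in 1-copy hearts and 9.92, 9.31, 9.53 and 9.06 in 0-copy hearts. The 0-copy arrays were below all 3-copy and 1-copy arrays. The 1-copy range reached the reference only through the 10.63 of the array with the disagreeing description. The slope of Cav1 was -0.31 ± 0.06 (SE, adjusted p = 0.146 in limma), with steps of -0.59, 0.30 and -0.83. Their signs were also those of Hmcn1 and of the median steps of the endothelial markers below. The share of all probe sets with these signs was not counted. Cd34, a sialomucin of endothelial and progenitor cells, read 11.50, 11.69 and 11.64, then 11.36, 10.54 and 11.79, then 10.93, 10.87, 11.24 and 10.95, and last 10.38, 10.98, 10.35 and 10.49. Its means ran down from 11.61 in 3-copy hearts to 10.55 in 0-copy hearts while neighbouring groups overlapped, with a slope of -0.34 ± 0.07 and a departure at an unadjusted p of 0.863.

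Rgs4, a regulator of G protein signalling, had the steepest of these slopes at -0.63 ± 0.14 (SE, adjusted p = 0.197 in limma), with means of 9.25, 8.10, 7.87 and 7.20. Its 2-copy arrays spread from 7.08 to 9.26. Fgf18, a fibroblast growth factor, had a slope of -0.34 ± 0.07, Dram2, a lysosomal membrane protein, one of -0.25 ± 0.05, and Sncaip, synphilin-1, one of -0.30 ± 0.06. Prr29 lay at -0.12 ± 0.03 (SE). Maoa, which breaks down monoamine transmitters, had means of 9.44, 9.51, 9.36 and 8.47, level over 3 groups and lower in the 0-copy hearts, for a slope of -0.32 ± 0.07 (SE).

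The departure of the 4 means from the line was called for 0 of 21776 probe sets in limma (smallest adjusted p = 0.356), and 1599 had an unadjusted p under 0.05 (7.34%). Among the 2204 slopes with an unadjusted p under 0.05, 393 (17.8%) also departed at that level, and 555 (25.2%) had their means in copy order. Over all probe sets the means were in rising order in 3.55% and in falling order in 4.59%. Of the 9 called slopes, 8 departed at an unadjusted p under 0.05, the exception being Irx3. The slope and the departure came from the same arrays.

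In the 5 named probe sets with the smallest departure p, the 2-copy and 0-copy means lay on one side and the 3-copy and 1-copy means on the other. Top2a, the topoisomerase of dividing cells, had means of 11.18, 11.44, 11.01 and 11.52. Its 1-copy mean lay at -0.30 from the line, and all 3 of the 2-copy arrays (11.33 to 11.53) and all 4 of the 0-copy arrays (11.42 to 11.59) were above all 1-copy arrays (10.80 to 11.11). Plscr1, a phospholipid scramblase, had means of 7.79, 8.53, 7.94 and 8.60. Kcnt2, a sodium-activated potassium channel, had means of 7.12, 6.26, 7.23 and 6.67, and Pcdhb20, a clustered protocadherin, 7.83, 7.26, 8.06 and 7.20. An Hmcn1 probe set, 10358565, also stood here, with a 1-copy mean of 11.52 above the 3-copy mean of 11.36 and a 0-copy mean of 10.27 (departure at an unadjusted p of 4.6e-05). The 2-copy hearts, which share the absence of Irx5 with the 0-copy hearts, kept 2 copies of Irx3.

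The line counts a copy of either gene alike, so each gene's difference per copy was also estimated by itself. Per Irx5 copy lost, averaged over both Irx3 states, 10 probe sets passed in limma (0.0459%): 6 of Hmcn1, 2 of Fdft1, 1 of Plscr1 and 1 of the predicted gene Gm4788. Per Irx3 copy lost, 0 passed in limma, with 1087 at an unadjusted p under 0.05 (4.99%) against 3459 for Irx5 (15.9%). The difference between both per-copy values was called for 0 probe sets in limma (2301 at an unadjusted p under 0.05, 10.6%, smallest adjusted p = 0.0936), so unequal weight of both genes was not shown for any of them. Their interaction was likewise called for 0 (890 at an unadjusted p under 0.05, 4.09%). The Irx5 count of 10 ranged from 0 to 38 when 1 array was left out: it was 0 without 1-copy replicate 3 or 4 or 2-copy replicate 3, and 38 without 0-copy replicate 2.

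Precision differed between both estimates. The loss of Irx3 was always that of 2 copies, so the SE per Irx3 copy was the smaller one, and the median SE per Irx5 copy was 0.0999. The Irx5 value was the larger in size in 83.4% of the 2204 slopes with an unadjusted p under 0.05, beside 81.4% of all probe sets. Both values had the same sign in 96.3% of those slopes and in 55.8% of all probe sets, a share that the choice by slope raises. For Irx3 both values lay within their errors of each other, at -0.24 ± 0.03 per Irx3 copy and -0.26 ± 0.07 (SE) per Irx5 copy. The brightest Hmcn1 probe set lay at -0.19 ± 0.03 and -0.48 ± 0.06, and the Irx5 value was the lower one in all 77 Hmcn1 probe sets. Fdft1 lay at 0.19 ± 0.04 and 0.68 ± 0.09, Tbx20 at 0.09 ± 0.06 and 0.70 ± 0.12, and Cd34 at -0.32 ± 0.08 and -0.41 ± 0.17 (SE). Bmp10, a ligand of the trabecular myocardium, had the reverse order with 0.49 ± 0.10 per Irx3 copy and -0.05 ± 0.21 per Irx5 copy.

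**Figure D3:**
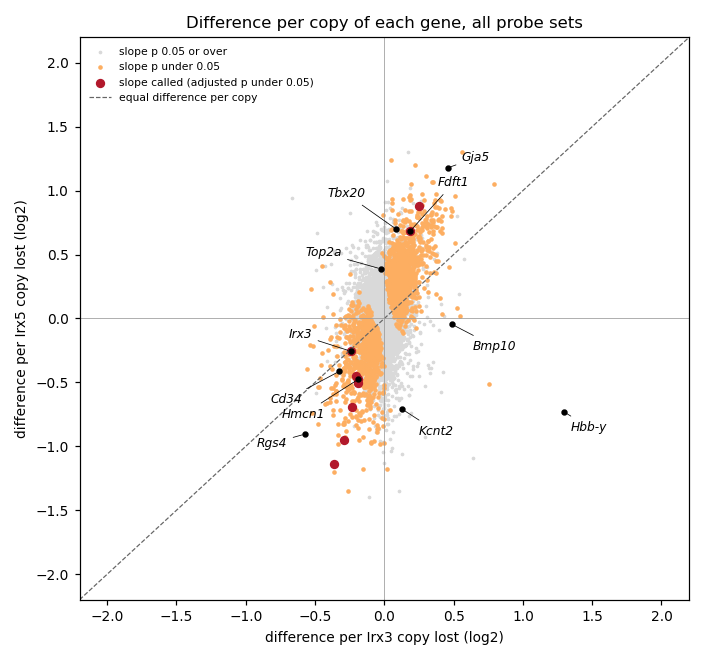
Difference per Irx3 copy lost (horizontal axis, log2) against difference per Irx5 copy lost (vertical axis, log2), with 1 point per probe set, called slopes in red and equal differences on the dashed line. Irx3 lies close to that line, Hmcn1 and Fdft1 lie on the side of the larger Irx5 value, and Bmp10 and Hbb-y on that of the larger Irx3 value.

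Taken singly, the step from 3 to 2 copies was called for 0 probe sets in limma (2368 at an unadjusted p under 0.05, 10.9%), and the step from 2 to 1 for 0 (1408, 6.47%). The step from 1 to 0 copies was called for 5 probe sets (0.023%), all of Hmcn1, beside 1757 at an unadjusted p under 0.05 (8.07%), with differences of -1.25 to -0.65 and an adjusted p of 0.0187 for each in limma. That count was 0 without 1-copy replicate 3 or 4 and without 0-copy replicate 1 or 3, and 15 without 0-copy replicate 2.

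Gene groups were read with the brightest probe set of each gene, over 19931 genes, of which 5.5% had a rising and 4.11% a falling slope at an unadjusted p under 0.05. Leaving out 1 array moved the median slope of a list by over 1.5 times for at least 1 array, except in the endothelial, oxidative phosphorylation, glycolysis, mitosis, basement membrane, compact myocardium, ion channel, immediate early and histone lists. Sarcomere genes, the contractile apparatus, had the highest median slope of the lists. Of 31 genes, 30 had slopes above 0, 23 of them at an unadjusted p under 0.05, no falling slope reached that level, and 0 were called. The median slope was 0.35, with median steps of 0.92, 0.02 and 0.24, and 0 of the 31 departed from the line at an unadjusted p under 0.05. Myl7 read 11.74, 11.02 and 10.29, then 11.46, 12.64 and 11.84, then 12.45, 12.07, 11.38 and 12.07, and last 12.48, 12.79, 12.46 and 12.62, for a slope of 0.47 ± 0.11 (SE, adjusted p = 0.224 in limma). Its 0-copy arrays were tightly grouped above the 3-copy arrays, which spread over more than a log2 unit. Tnni1 had a slope of 0.36 ± 0.10 (SE). Without 3-copy replicate 3, the array lowest in muscle signal, the median slope of the list was 0.19.

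Genes of mitochondrial and sugar metabolism had rising slopes beside those of muscle. All 24 genes of oxidative phosphorylation had slopes above 0, with 19 at an unadjusted p under 0.05, 0 called, and a median of 0.17. Examples were Cox6a2, the striated muscle form of a cytochrome oxidase subunit, at 0.42 ± 0.12 and Ndufv2, a complex I subunit, at 0.27 ± 0.07 (SE). Among 21 genes of glycolysis and the hypoxia response, 14 slopes were rising and 0 falling at an unadjusted p under 0.05, 0 were called, and the median was 0.19. Egln3, an oxygen-sensing hydroxylase, lay at 0.30 ± 0.08 and Slc16a3, a lactate exporter, at 0.27 ± 0.08 (SE). With the sarcomere mean of each array as a covariate, the median slope was 0.00 for oxidative phosphorylation and 0.03 for glycolysis and hypoxia.

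Endothelial and endocardial markers had mostly falling slopes, but their means followed a saw-tooth and were low in 2-copy and 0-copy hearts. Of 31 genes, 30 had slopes below 0, 15 at an unadjusted p under 0.05, and 0 were called, with a median of -0.15. Their median steps were -0.67, 0.54 and -0.55, and 18 of the 31 departed at an unadjusted p under 0.05. Per copy the medians were -0.04 for Irx3 and -0.61 for Irx5. By array the mean of the list, relative to its average over all arrays, was 0.28, 0.54 and 0.27 in 3-copy hearts and -0.43, -0.13 and -0.19 in 2-copy hearts. It was 0.27, 0.08, 0.02 and 0.47 in 1-copy hearts and -0.10, 0.14, -0.71 and -0.52 in 0-copy hearts. The 3-copy and 2-copy arrays did not overlap, and 0-copy replicate 2 lay among the 1-copy arrays. Ets1, a transcription factor of endothelial cells, had means of 10.56, 9.81, 10.09 and 10.01 and a slope of -0.13 ± 0.04 (SE), which was 0.09 without the 3-copy hearts.

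**Figure D4:**
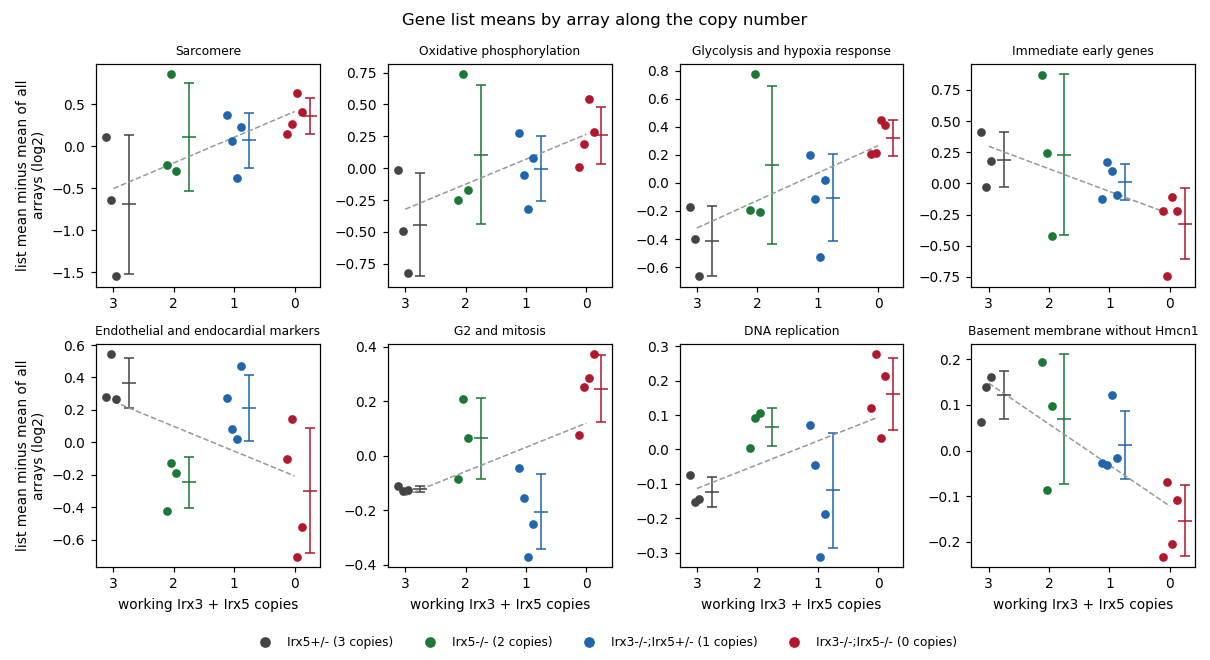
Mean of 8 gene lists per array, relative to the average over all arrays (vertical axes, log2), against the working copies (horizontal axes), with 1 point per array, mean and SD per group beside the points and the straight line dashed. The sarcomere list lies lowest in 3-copy replicate 3 at -1.55, and the endothelial list is low in the 2-copy and 0-copy hearts.

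Cell cycle genes had the opposite saw-tooth. Among 24 genes of G2 and mitosis, 7 slopes were rising and 0 falling at an unadjusted p under 0.05, 0 were called, the median slope was 0.07, and 14 departed at an unadjusted p under 0.05. The median steps were 0.20, -0.29 and 0.45, so 1-copy hearts lay lowest. Bub1, a spindle checkpoint kinase, read 9.79, 9.49 and 9.36, then 9.95, 10.18 and 9.98, then 9.82, 9.87, 9.59 and 9.68, and last 10.18, 10.28, 10.22 and 10.09. The 2-copy and 0-copy arrays all lay above all others, for a slope of 0.16 ± 0.04 (SE, adjusted p = 0.207 in limma). Ube2c, the ubiquitin-conjugating enzyme of the anaphase-promoting complex, lay at 0.21 ± 0.06 (SE). Of 25 DNA replication genes, 6 slopes were rising and 0 falling at an unadjusted p under 0.05, 0 were called, and the median was 0.06. Cdc6, a replication licensing factor, lay at 0.25 ± 0.06 and Mcm8, a helicase, at 0.23 ± 0.05 (SE). Fitted without the 0-copy hearts, both lists had medians below 0, -0.06 and -0.03. Only 4 of the 13 replication-dependent histone genes listed were measured by a probe set of 1 symbol, and their slopes were all above 0 with a median of 0.10 and 0 at an unadjusted p under 0.05.

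Among matrix genes Hmcn1 was the one called. Of 18 genes of the basement membrane and hemicentins, 4 slopes were falling and 1 rising at an unadjusted p under 0.05, and the median was -0.05, as it was for the 17 without Hmcn1. The others, chosen after their values were seen, were Lama2 at -0.27, Nid1 at -0.20 and Fbln5 at -0.58, and Nid2 at 0.12 on the rising side. Hmcn2, the other hemicentin, lay at -0.05 with an unadjusted p of 0.122. Among 19 fibrillar collagen and other matrix genes 3 slopes were falling and 2 rising at an unadjusted p under 0.05 and 0 were called, with a median of -0.09. Col6a3 lay at -0.44 ± 0.14 and Eln, elastin, at -0.41 ± 0.13 (SE). Among 9 caveola genes 3 slopes were falling and 0 rising at that level, 0 were called, and the median was -0.07. Cav1 was given above, and Cav2 lay at -0.22 ± 0.06 (SE).

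Regulators of chamber and conduction tissue had slopes in both directions. Among 18 genes of the conduction system and atrioventricular canal, 3 slopes were rising and 2 falling at an unadjusted p under 0.05 and 0 were called (median 0.03). Gja5, the gap junction gene of fast conducting tissue, read 9.99, 8.31 and 7.38 in 3-copy hearts, 9.99, 10.97 and 10.09 in 2-copy hearts, 10.63, 9.74, 9.92 and 10.08 in 1-copy hearts and 10.23, 10.84, 11.14 and 10.44 in 0-copy hearts. The 3-copy hearts carried most of its slope of 0.59 ± 0.15 (SE, adjusted p = 0.248 in limma), in the order of their muscle signal. It was 0.21 (adjusted p = 0.690) with the sarcomere mean as a covariate and 0.39 without 3-copy replicate 3. Tbx3, a repressor that marks the conduction system, had means of 8.10, 8.04, 8.19 and 8.67 and a slope of 0.19 ± 0.04 (SE). Among 21 ion channel and calcium handling genes 6 slopes were rising and 0 falling at that level and 0 were called (median 0.08). Cacna2d2, a calcium channel subunit, lay at 0.39 ± 0.08 with means in copy order from 7.85 to 9.06, and Pln, phospholamban, at 0.39 ± 0.15 (SE), which was -0.02 with the sarcomere mean as a covariate and 0.20 without 3-copy replicate 3.

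Among 23 cardiac transcription factors 4 slopes were rising and 2 falling at an unadjusted p under 0.05 and 0 were called (median 0.03). Tbx20, a T-box factor of the heart, read 10.42, 9.90 and 10.18, then 10.99, 11.06 and 10.74, then 10.31, 10.50, 10.14 and 10.69, and last 10.86, 10.77, 11.14 and 11.38. The 2-copy and 0-copy arrays all lay above all 3-copy and 1-copy arrays, for a slope of 0.21 ± 0.06 and a departure at an unadjusted p of 0.00256. Nr2f1, a nuclear receptor of the COUP-TF family, lay at 0.22 ± 0.05 (SE) with means in copy order from 7.95 to 8.66. In compact myocardium 2 of 10 slopes were rising and 0 falling at that level and 0 were called (median 0.10): Tbx20 and Ccnd1, a G1 cyclin, at 0.20 ± 0.04. Ccnd1 read 10.20 to 10.34 in 3-copy hearts and 10.77 to 10.96 in 0-copy hearts, above every other array. Of 14 genes of the trabecular myocardium Irx3 was the called one, and 5 slopes were rising and 3 falling at an unadjusted p under 0.05 (median 0.10, and 0.02 without 3-copy replicate 3). Among 17 cushion and valve genes 5 slopes were rising and 0 falling at that level and 0 were called (median 0.06), and Msx2, a homeobox factor of the cushions, lay at 0.12 ± 0.04 (SE) with only its 0-copy mean, 8.12, above the 3-copy mean of 7.70.

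No gene of the signalling lists was called. In the BMP and TGF-beta list 3 of 24 were rising and 1 was falling at an unadjusted p under 0.05 and 0 were called (median -0.03). Bmp10 read 6.15, 6.01 and 6.44, then 5.82, 6.38 and 5.94, then 7.75, 7.32, 6.82 and 6.38, and last 6.74, 6.95, 7.74 and 7.10. Its values were low in both groups with Irx3 and higher in those without it, apart from 1-copy replicate 4, for a slope of 0.38 ± 0.09 (SE, adjusted p = 0.226 in limma). Bmp2, which acts in the atrioventricular canal, lay at 0.31 ± 0.11 (SE) with means of 7.71, 7.98, 7.72 and 8.78. Among 14 Notch genes 0 slopes were rising and 5 falling at that level and 0 were called (median -0.05), with Notch2, a receptor, at -0.29 ± 0.10 and Nrarp, a feedback inhibitor, at -0.14 ± 0.05 (SE). All 13 immediate early genes had slopes below 0, with 2 at an unadjusted p under 0.05, 0 called and a median of -0.14. Fosb read 11.70, 10.76 and 10.58, then 11.90, 10.57 and 10.49, then 10.28, 11.11, 11.42 and 10.55, and last 9.69, 9.90, 9.12 and 9.99, so only the 0-copy arrays stood apart, below all others. Its slope was -0.43 ± 0.12 and that of Egr1, a zinc finger factor, -0.31 ± 0.11 (SE).

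Among markers of other cells that a heart sample can hold, none was called. Of 14 epicardial markers 2 slopes were rising and 0 falling at an unadjusted p under 0.05 (median 0.08), with Tcf21 at 0.43 ± 0.17 and Krt19 at 0.25 ± 0.10 (SE). Of 12 smooth muscle and pericyte markers 0 slopes were rising and 2 falling at that level and 0 were called (median -0.02), Smtn at -0.11 ± 0.04 and Notch3 at -0.17 ± 0.07 (SE). For macrophage and blood cell markers 0 of 13 and for liver and lung bud markers 0 of 11 had an unadjusted p under 0.05 (medians -0.02 and -0.03), and for neural crest and nerve markers 1 of 9, Erbb3 at 0.13 ± 0.05 (SE, list median -0.01). Of 9 erythroid genes 2 had rising slopes at that level and 0 were called (median -0.01). Hbb-y, an embryonic globin, read 8.57, 6.94 and 7.89, then 8.99, 6.79 and 6.88, then 11.83, 7.87, 11.95 and 11.84, and last 8.62, 11.84, 10.58 and 7.60. High arrays occurred only in the groups without Irx3, and the 0-copy arrays alone spread from 7.60 to 11.84, for a slope of 0.87 ± 0.35 (SE). Hba-x, an embryonic alpha-like globin, lay at 0.49 ± 0.20 (SE).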

How the data were processed

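Heart RNA was hybridised to 14 Affymetrix Mouse Gene 1.0 ST arrays. Per the file headers, the authors deposited log2 intensities, 1 per probe set, from RMA over all arrays, and probe sets with no group mean above 3 were left out. RMA, affy and limma are named in the submitters' processing notes, without versions. Values were used as deposited (0 probe sets lay below that floor). Arrays carry no counts, and their number is among the limits on precision. The RNA input was recorded as 1 ng for every array. The platform table gives 1592 probe sets several symbols and 5395 none, and these were left out. Of the 21776 used, 21685 matched the reference gene table (GRCm38.p6) by gene ID and 91 did not.

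A mean per group was fitted to all 14 arrays with limma 3.58.1 in R 4.3.3 (10 residual and 3.24 prior degrees of freedom, median residual SD 0.188), with moderated variances. The slope per copy lost is the contrast that equals the straight line through the arrays. The departure is an F test of the remaining 2 degrees of freedom. Steps, per-copy differences and the interaction are contrasts of the same fit. Tests were 2-sided, Benjamini-Hochberg adjusted over 21776 probe sets and called under 0.05, with no minimum fold. Errors are SEs for differences and SDs in the plots. For 998 of 19931 genes with several probe sets, the brightest stands for the gene in the lists. Other probe sets are given where they were called or where a gene was named by its smallest p.

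Members and lists were chosen with earlier results of these data known. Named genes were Irx1 to Irx6, called genes, up to 10 genes per direction with the smallest slope p where under 10 were called, the 5 with the smallest departure p, and per list the called members or the 2 with the smallest p. Small RNAs, predicted genes and chemosensory receptors were not named by this rule, and exceptions are marked. Ranks were taken over genes rather than probe sets, since Hmcn1 has 77.

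Replicate numbers were checked for pairing: deviations of 19 same-numbered array pairs from their group means correlated at -0.177 to 0.188 (median -0.046), beside a median of 0.017 in 54 other pairs, so the numbers were not used as pairs. The procedure was tested on simulated data. Alternatives left out each array or a group, added terms for sex, replicate number or the sarcomere mean, recounted 1 array, and changed the probe set filter, the variance prior, array weights, centring and the dose scale. Promoter windows are from RefSeq. Fdft1 and Irx5 were not matched there.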

Additional observations from a re-analysis of the deposited data

Results flagged for a closer look

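Within groups of 4 arrays, the gap of the most extreme array to its nearest neighbour was compared with the range of the group for each named gene. Of 156 such groups, 8 held an array far from the others, where about 1 in 20 would by chance. In 0-copy hearts, Cav2 read 8.28 in replicate 2 against 7.86 in the nearest array, Hspb8 read 9.78 in replicate 4 against 9.94, and Nans read 8.41 in replicate 1 against 8.89. In 1-copy hearts, Hbb-y read 7.87 in replicate 2 against 11.83, and Notch2 read 10.34 in replicate 3 against 9.28. In the same group Pcdhb20 read 7.69 in replicate 1 against 8.15 and Plscr1 read 7.67 in replicate 1 against 8.01. Polr3c read 8.93 in 1-copy replicate 4, the array with the disagreeing description, against 8.73.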

How the results depend on the processing

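The count of 9 called slopes ranged from 3 to 43 when 1 array was left out, and was 0 with a replicate block, 0 with the sarcomere mean as a covariate, 0 without the reference group, 0 without the double mutant group, 1 with departures in the error, 3 with 1 probe set per gene and 19 with the number of genes lost entirely as dose. It was 7 to 9 under the other settings. Left-out arrays gave 0 to 1 departures (0 with all arrays), 0 to 1 calls for the step from 3 to 2 copies (0), 0 to 15 for the step from 1 to 0 (5), 0 to 38 per Irx5 copy (10), 0 to 1 per Irx3 copy (0) and 0 to 1 for the difference of both (0). The step from 1 to 0 gave 0 with the replicate block, 0 with the disagreeing array counted as Irx5-/-, 1 with 1 probe set per gene, 9 with only probe sets above the median level, 8 with a trend and robust variance prior and 11 with array weights. The Irx5 count was 1 with the replicate block, 0 with the sarcomere term, 0 with the recounted array, 3 with 1 probe set per gene and 18 with array weights. The Irx3 count was 1 with the recounted array, and the difference of both was called for 1 with the replicate block, 1 with the trend and robust prior and 1 with centred arrays. The step from 2 to 1 copies and the interaction stayed at 0. The replicate numbers do not pair the arrays (1 of 14 correlated best with an array of its own number). Slopes changed sign without the double mutant group for Bmp2 (-0.0054), H1f5 (-0.0103), Hmcn1 probe set 10358565 (0.10), Irx6 (0.0078), Mcm8 (-0.0436), Msx2 (-0.0827), Pcdhb20 (0.14), Top2a (-0.10) and Kcnt2 (0.0952), and list medians for G2 and mitosis (-0.0647), DNA replication (-0.0311), cushion (-0.0138), conduction (-0.0074), caveolae (0.0130) and histones (-0.0197). Without the reference group they did for Ets1 (0.0887), Irx6 (0.0280), Sox10 (0.0068), Ttr (0.0280), Kcnt2 (0.164) and Irx1 (0.0420) and for the trabecular (-0.0074), cholesterol (-0.0155) and liver and lung (0.0201) medians. With the sarcomere term they did for Irx4 (-0.0295) and Pln (-0.0246) and for the fibrillar matrix (0.11), trabecular (-0.0397), ion channel (-0.0354) and BMP (0.0405) medians, and the slope of Ttr ran from -0.116 to 0.0098 when 1 array was left out, the latter without Irx5+/- replicate 1, that of Kcnt2 from -0.0690 to 0.0198 and that of Irx1 from -0.0367 to 0.0150. The slope of Irx1 was also 0.00853 with the replicate block, 0.0062 with the sex term and 0.0163 with genes lost as dose. Medians within their SE of 0 were not read for sign. The causes were not tested. Of the other values, 1935 slopes kept direction and side of the threshold, 89 kept the direction but lost the call, 23 gained one, and 657 list medians moved by less than the SE of the list mean's slope and 30 by more.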

Other observations

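Some probe sets outside the naming rule also stood out. Gm4788, a predicted gene on chromosome 1 chosen after its values were seen, had the smallest departure p of all probe sets (1.69e-05, adjusted p = 0.356 in limma). Its means were 6.79 in 3-copy, 5.99 in 2-copy and 6.78 in 1-copy hearts, and the 0-copy mean was close to that of the 2-copy hearts. Its difference per Irx5 copy was -0.79 ± 0.09 (SE, adjusted p = 0.0177 in limma) and that per Irx3 copy -0.0005. Hmcn1 and Kcnt2, which also had low 2-copy means, lie on chromosome 1 as well. They were picked after their values were seen, and the share of such genes on that chromosome was not counted. Cav1, Pcdhb20 and Irx6 had low 2-copy means too, and a link by position was not tested.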
